A study of Mus musculus with 12 samples.

Results

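The genes described here are 9 transcription factors that direct the myeloid branch of blood formation: Cebpa, Cebpb, Cebpd, Cebpe, Gfi1, Spi1, Irf8, Klf4 and Runx1. They were taken by name from the 34745 genes of the deposited table, 1 row per gene. The rule uses names alone, though the set was proposed with earlier results of these data in view. The RNA came from the whole cell suspension of the femoral marrow of 12 male mice of the outbred ICR strain, split evenly over 4 groups of 3. The normal group received saline in place of cyclophosphamide. The other groups were all injected with cyclophosphamide, a DNA-alkylating drug toxic to cells in division, on days 5 to 7 at a daily dose of 80 mg/kg. During the 7 days the model group was given vehicle, the QJSB group the Qi-Jing-Sheng-Bai granule at a daily 3 g/kg, and the leucogen group leucogen, a clinical leucocyte-raising drug, at a daily 20 mg/kg. There was no group that received QJSB or leucogen without cyclophosphamide, so a comparison of either drug group with normal includes the cyclophosphamide. The columns of the table are headed Blank, Model, Stilbene and Positive. Apart from Model these are not the group names of the labels, and they were read as normal, QJSB and leucogen from the meaning of the words and by elimination, a reading on which every result for those groups rests.

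Myeloid cells arise in the bone marrow from stem and progenitor cells through a sequence of transcription factors. Runx1 acts at the start of definitive blood formation and in progenitors. Spi1, which encodes PU.1, and Cebpa open the granulocyte and monocyte programme, and Gfi1 and Cebpe then direct maturation of neutrophils, Cebpe being required for the secondary granules. Cebpb is known for granulocyte production under demand, and Cebpd for expression in maturing and stimulated myeloid cells. Irf8 favours monocytes and dendritic cells over neutrophils, and Klf4 acts in monocyte differentiation. Each level below is a share of the RNA in a library, so a gene can also rise when RNA of other cells is lost. In RNA of whole marrow, this loss, more cells of a type and more RNA per cell cannot be told apart. That holds for every level given below.

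In the mouse genome mm10 Cebpa lies at chr7:35119293-35121928, Cebpb at chr2:167688915-167690418, Cebpd at chr16:15887286-15888466 and Cebpe at chr14:54710363-54712174. Gfi1 lies at chr5:107716657-107726036, Spi1 at chr2:91082390-91115756, Irf8 at chr8:120736358-120756694, Klf4 at chr4:55527143-55532466 and Runx1 at chr16:92601466-92826149. All 9 are protein-coding. In the GENCODE M21 annotation the transcripts of Cebpb have 1 exon, and those of Irf8 have up to 9.

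Upstream sequence is shown for the 3 genes that rose together after cyclophosphamide and whose start in the RefSeq promoter table (GRCm38.p6) lay within 10 bases of the start of the deposited gene. Each line gives the 250 bases before the start, 5′ to 3′ on the strand of the gene, at chr7:35119043-35119292 for Cebpa (+ strand), chr2:167688665-167688914 for Cebpb (+ strand) and chr4:55532476-55532725 for Klf4 (- strand). Capitals mark the motifs that were found on either strand.
Cebpa: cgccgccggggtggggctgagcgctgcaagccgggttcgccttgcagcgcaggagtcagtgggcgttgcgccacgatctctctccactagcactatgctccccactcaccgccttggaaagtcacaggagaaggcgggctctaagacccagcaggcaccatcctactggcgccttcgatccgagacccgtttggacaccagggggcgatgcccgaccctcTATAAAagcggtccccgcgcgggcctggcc
Cebpb: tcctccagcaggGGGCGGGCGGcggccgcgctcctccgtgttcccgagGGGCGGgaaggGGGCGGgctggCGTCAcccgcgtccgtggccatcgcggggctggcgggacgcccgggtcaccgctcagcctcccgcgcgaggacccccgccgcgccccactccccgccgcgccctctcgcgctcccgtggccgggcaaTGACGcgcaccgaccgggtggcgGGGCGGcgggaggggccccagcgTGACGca
Klf4: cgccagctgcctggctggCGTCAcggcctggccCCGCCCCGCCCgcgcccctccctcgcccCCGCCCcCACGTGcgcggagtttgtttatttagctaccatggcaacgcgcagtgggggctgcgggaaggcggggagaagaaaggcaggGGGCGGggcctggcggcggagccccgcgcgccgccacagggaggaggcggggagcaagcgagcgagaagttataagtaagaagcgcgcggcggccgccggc
The motifs searched on both strands were the TATA box (TATAAA), the CCAAT box (CCAAT), a C/EBP site (TTGCNNAA), the GC box (GGGCGG), an E box (CACGTG), a cyclic AMP response core (TGACG), a RUNX site (TGTGGT), an ETS core (GAGGAA) and a GFI1 core (AAATC). The Cebpa window held a TATA box that began 30 bases before the start, a motif present in 12.4% of all 32851 windows of this length. The Cebpb window held 5 GC boxes, the first pair overlapping, and 3 cyclic AMP response cores. The Klf4 window held 4 GC boxes, of which a pair overlapped, with 1 E box and 1 cyclic AMP response core. A GC box was present in 32.7% of all windows, a cyclic AMP response core in 17.8% and the E box in 6.02%. The C/EBP, RUNX, ETS, GFI1 and CCAAT letters were in none of the 3 windows, and they were in 9.56%, 14%, 23.3%, 32.7% and 33.8% of all windows. The windows of Cebpa, Cebpb and Klf4 were 66.4%, 81.6% and 74.0% G and C. The shares over all windows were not matched for base composition. A match is a run of letters and was not tested as a binding site.

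The libraries held between 11172547 and 18545198 counts. All 9 genes passed the filter on low counts in every comparison, and their counts per library ran from 85 for Cebpb in a normal mouse to 5433 for Irf8 in a model mouse. The marrow label was checked against lists of marker genes. All 6 promyelocyte, 12 late neutrophil, 8 monocyte and 9 erythroid markers had counts in each normal library. By the call rule given below, 6 of 6 promyelocyte and 7 of 8 monocyte markers rose from normal to model, beside 16.1% of all genes tested. Those that fell were 9 of 9 erythroid, 8 of 10 B lineage, 6 of 12 late neutrophil and 6 of 9 macrophage markers, beside 19.0% of all genes. Of 7 tested dendritic cell markers 1 rose and 3 fell. Model replicate 1 and QJSB replicate 1 stood apart from the other libraries of their groups. Their mean log2 CPM over the late neutrophil list was 6.54 and 7.03, against 7.79 to 9.90 in the other model and QJSB libraries, and over the stromal list 5.03 and 5.0, against 3.50 to 3.88. The part of these shifts in the results was not tested.

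Compared per transcript length, as the deposited FPKM allow, Cebpe had the highest level of the 9 genes in each group and Klf4 the lowest. The mean FPKM of Cebpe was 44.9 ± 2.94 (SD, n = 3) in normal, 61.9 ± 19.9 in model, 98.5 ± 35.9 in QJSB and 88.9 ± 12.4 in leucogen. That of Klf4 was 3.14 ± 0.355, 8.31 ± 2.62, 7.60 ± 3.35 and 4.55 ± 0.532 in the same order. In normal marrow the order from the top was Cebpe, Irf8, Cebpd, Spi1, Runx1, Cebpb, Cebpa, Gfi1 and Klf4. Irf8 at 23.3 ± 1.97 and Cebpd at 22.9 ± 4.11 FPKM did not differ beyond their spread. The same held for Cebpb at 5.07 ± 1.32 and Cebpa at 4.25 ± 0.275, and for Gfi1 at 3.44 ± 1.57 and Klf4. The mice also overlapped between Cebpd and Spi1, at 18.85 ± 0.227 FPKM, and between Cebpa and Gfi1. In model marrow Spi1, at 37.6 ± 9.13 FPKM, stood second, followed by Irf8 at 27.4 ± 11.5, a gap within their spread. In leucogen marrow Cebpd, at 33.1 ± 3.94 FPKM, stood second beside Spi1 at 31.5 ± 4.30, also within the spread.

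**Figure D1:**
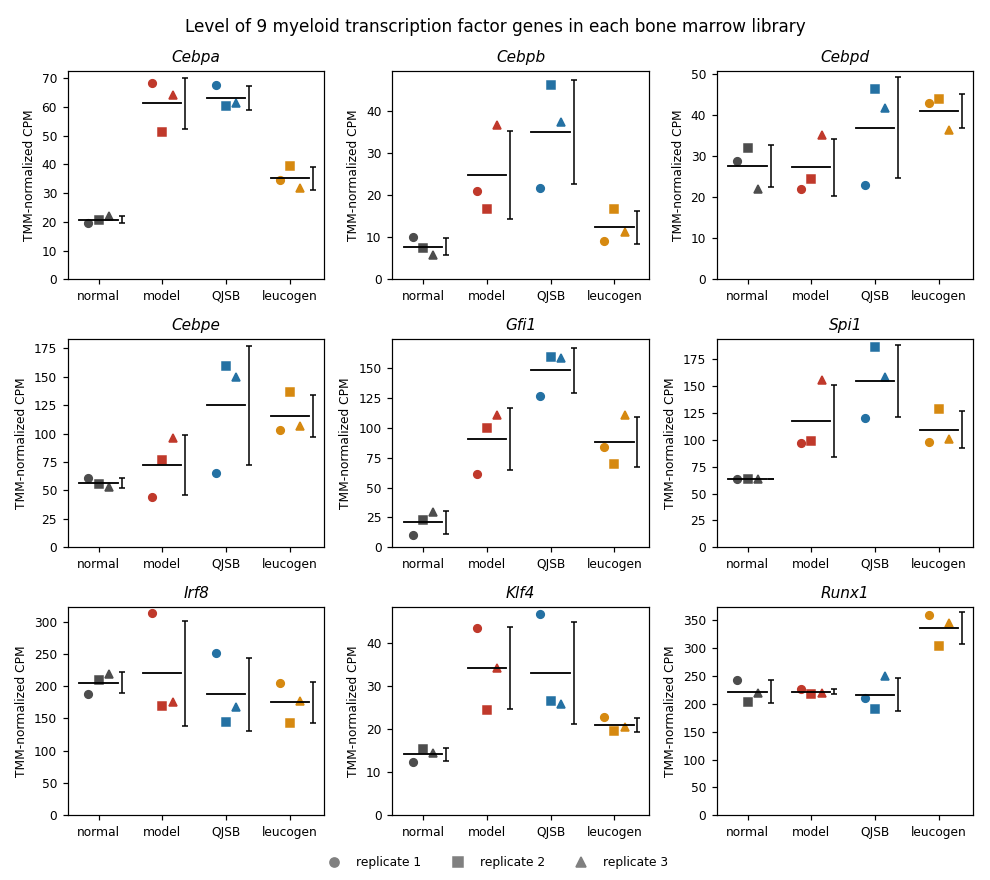
TMM-normalized CPM (read counts scaled to library size, vertical axes, each from 0) of the 9 genes in the 12 libraries by group. Points are mice with the marker giving the replicate number, the line is the mean and the bar beside it ± 1 SD. Cebpa lay between 51.3 and 68.3 CPM in the model mice, above all normal mice, and Runx1 was highest in the 3 leucogen mice.

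The first comparison asked what cyclophosphamide did to the factors, model against normal. Of the 9 genes, 5 rose (Cebpa, Cebpb, Gfi1, Spi1 and Klf4) and none fell. A gene was called when the quasi-likelihood test of edgeR, with Benjamini-Hochberg adjustment over all genes, gave an adjusted p under 0.05 and the fold was over 1.5. By this rule 35.1% of all genes tested were called, 16.1% of them higher and 19.0% lower. Expression below is in CPM, the count of a gene scaled to the size of its library, after TMM normalization, and replicates are given in the order of their numbers.

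Cebpa, needed for progenitors to enter the granulocyte and monocyte path, was at 19.6, 20.7 and 21.9 CPM in the normal mice and 68.3, 51.3 and 64.0 CPM in the model mice. The groups did not overlap. Its log2 fold change was 1.57 ± 0.15 (SE), a 2.96-fold higher level (adjusted p = 0.000117, edgeR). Cebpb was at 10.0, 7.48 and 5.86 CPM in normal and 21, 16.7 and 36.7 CPM in model. Every model mouse was above every normal mouse, and model replicate 3 stood well above the others. For Cebpb the log2 fold change was 1.68 ± 0.33 (adjusted p = 0.00416, edgeR). Cebpb shares 312 exon bases with Tmem189 on the other strand, and how the counting used strand is not stated. Tmem189 was at 21.7 ± 1.72 CPM in normal and 23.5 ± 8.39 CPM in model (SD, n = 3), and model replicate 3, at 33.1 CPM, was also the highest.

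Gfi1, a repressor that supports neutrophil over monocyte fate, had the largest change of the 9. It was at 10.7, 22.9 and 29.4 CPM in the normal mice and at 61.2, 100.1 and 110.6 CPM in the model mice. The normal mice differed among themselves, and all lay below the model mice. This was a log2 fold change of 2.12 ± 0.39, or 4.33-fold (adjusted p = 0.00461, edgeR). A gene on the other strand, A430072P03Rik, shares 101 exon bases with Gfi1 and had 405 counts over the 12 libraries, against 16154 for Gfi1.

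Spi1 was almost level in the normal mice, at 63.4, 63.3 and 63.9 CPM, and was at 96.7, 99.0 and 155 CPM in the model mice. The lowest model mouse was thus above the highest normal mouse. For Spi1 the log2 fold change was 0.89 ± 0.19 (adjusted p = 0.00646, edgeR). Klf4 was at 12.4, 15.4 and 14.6 CPM in normal and 43.5, 24.5 and 34.2 CPM in model, again without overlap. Its log2 fold change was 1.28 ± 0.22, or 2.42-fold (adjusted p = 0.00224, edgeR). These 5 genes were also the 5 whose groups did not overlap, beside 55.5% of all genes tested. They stayed called in each alternative fit, including those that left out a library.

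Cebpe, Cebpd, Irf8 and Runx1 were not called. Cebpe was at 61.1, 55.9 and 53.0 CPM in normal and 44.4, 76.5 and 96.4 CPM in model, so that the model mice lay on both sides of the normal mice. Its log2 fold change was 0.36, with a 95% interval from -0.23 to 0.94 (adjusted p = 0.291, edgeR). Without model replicate 1, the library low in late neutrophil markers, it was 0.63 (adjusted p = 0.0141) and Cebpe was called. Irf8 was at 188, 209 and 219 CPM in normal and 314, 170 and 176 CPM in model. The first model mouse alone was above the normal mice, and the log2 fold change was 0.10 with an interval from -0.43 to 0.63.

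Cebpd was at 28.7, 32.0 and 22.0 CPM in normal and 22.1, 24.3 and 35.2 CPM in model, ranges that overlapped almost fully. Its log2 fold change was -0.02, with an interval from -0.52 to 0.48, and it turned positive, at 0.10, when libraries were scaled to total counts. Runx1, with the smallest standard error of the 9, was at 243, 204 and 219 CPM in normal and 227, 218 and 220 CPM in model. The interval of its log2 fold change ran from -0.26 to 0.27. The interval of Runx1 lies inside the 1.5-fold cutoff, whereas those of Cebpe and Irf8 reach beyond it.

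**Figure D2:**
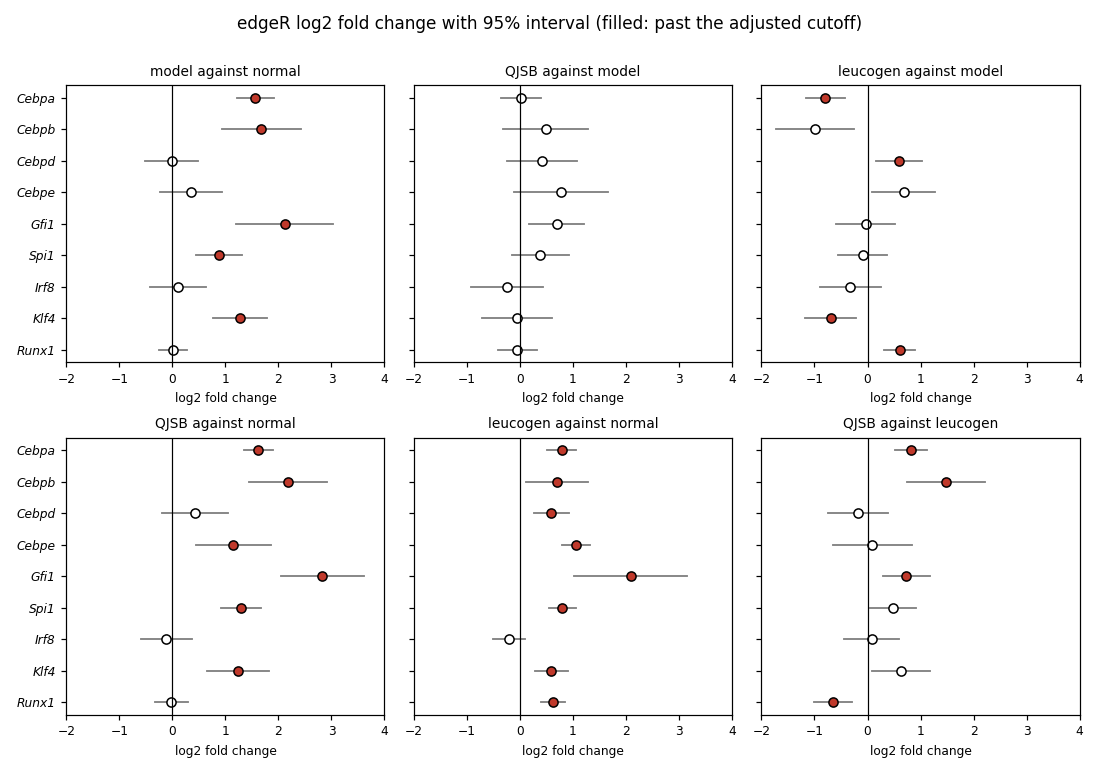
Log2 fold change (horizontal axes) of the 9 genes in the 6 comparisons, from edgeR, with 3 mice in each group. Points are estimates, lines are 95% intervals, and filled points were past both the adjusted p and the fold cutoff. There were 5 filled points for model against normal, 0 for QJSB against model and 4 for leucogen against model.

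The second comparison asked whether QJSB changed the factors in marrow exposed to cyclophosphamide. In QJSB against model the adjusted cutoff was passed by 0 of the 9 genes and by 0% of all genes tested. At an unadjusted p under 0.05, edgeR gave 723 genes of 14486. With the fold cutoff added 3.08% of genes passed, among them 1 of the 9, Gfi1. DESeq2 called 0 of the 9.

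Gfi1 was at 61.2, 100.1 and 110.6 CPM in the model mice and at 126.5, 158.9 and 158.3 CPM in the QJSB mice. All QJSB mice were above all model mice. Groups without overlap, in either direction, were found for 1 of the 9 genes and for 9.80% of genes tested, a similar share. The log2 fold change of Gfi1 was 0.69 with a 95% interval from 0.17 to 1.22 (unadjusted p = 0.0158 and adjusted p = 0.767, edgeR). With model replicate 1 and QJSB replicate 1 both left out, a fit added after the data were seen, it was 0.56 (adjusted p = 0.348).

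Cebpe had the largest log2 fold change, with 44.4, 76.5 and 96.4 CPM in model and 65, 159.7 and 149.4 CPM in QJSB. Within both groups replicate 1 was the lowest, and these were the libraries with the lowest summed CPM of late neutrophil markers, 5335 in model and 5512 in QJSB. The log2 fold change of Cebpe was 0.77, with an interval from -0.12 to 1.66 (adjusted p = 0.767, edgeR). All 12 late neutrophil markers were also higher in QJSB, with a median log2 fold change of 1.22, and 0 of them passed the cutoff. Their part in the level of Cebpe was not tested. Cebpb, at 21.7, 46.1 and 37.5 CPM in QJSB, and Cebpd, at 22.9, 46.2 and 41.6 CPM, both overlapped the model mice. Spi1 was at 119.9, 185.6 and 157.7 CPM in QJSB and overlapped model as well. The intervals of these 3 genes ran from -0.32 to 1.29, from -0.24 to 1.08 and from -0.15 to 0.92 on the log2 scale, so a fold over 1.5 in favour of QJSB lies within each.

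Cebpa differed little, at 67.7, 60.1 and 61.3 CPM in QJSB, with a log2 fold change of 0.03 and an interval from -0.35 to 0.41. This interval lies inside the 1.5-fold cutoff in both directions. The same was true of Runx1, at 209, 190 and 250 CPM in QJSB, whose interval ran from -0.41 to 0.31. Irf8 was at 251, 144 and 167 CPM in QJSB and Klf4 at 46.6, 26.5 and 25.8 CPM, and for both genes replicate 1 was the highest, as it was in the model group. Their log2 fold changes were -0.25 and -0.06, with intervals from -0.92 to 0.43 and from -0.73 to 0.60.

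Leucogen against model was the third comparison, and it gave 4 called genes of 9, beside 23.1% of all genes tested. Cebpa and Klf4 fell, and Runx1 and Cebpd rose. The lower and higher calls over all genes were 11.5% and 11.6%. The groups did not overlap for 5 of the 9, Cebpe being the fifth, beside 46.0% of all genes.

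Cebpa was at 34.4, 39.5 and 31.6 CPM in the leucogen mice, all of them below the lowest model mouse at 51.3 CPM and above the highest normal mouse at 21.9 CPM. Its log2 fold change against model was -0.79 ± 0.16 (adjusted p = 0.00938, edgeR). Klf4 also lay between the other groups, at 22.8, 19.6 and 20.6 CPM, with a log2 fold change of -0.69 ± 0.21 (adjusted p = 0.0397, edgeR). Runx1 was at 359, 303 and 344 CPM, above every mouse of every other group. Its log2 fold change was 0.61 ± 0.13 (adjusted p = 0.0112, edgeR), which is close to the cutoff of 0.585. Cebpd was at 42.8, 43.8 and 36.3 CPM, and the lowest of these was just above the highest model mouse at 35.2 CPM. The log2 fold change of Cebpd was 0.60 ± 0.19 (adjusted p = 0.048, edgeR), close to both cutoffs.

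Cebpb and Cebpe missed the adjusted cutoff of edgeR in this comparison, while DESeq2 called both, 6 of the 9 genes in all, with log2 fold changes of -0.98 (adjusted p = 0.016) and 0.69 (adjusted p = 0.0443). Cebpb was also called with total counts (adjusted p = 0.0236), with at least 10 counts in every library (adjusted p = 0.0479) and in both limma fits on FPKM (adjusted p = 0.0297 and 0.0308), and Cebpe with the replicate number as a block (adjusted p = 0.0487, edgeR). Cebpb was at 9.14, 16.8 and 11.3 CPM in leucogen, where the highest mouse just reached the lowest model mouse, and its log2 fold change was -0.99 (adjusted p = 0.0533, edgeR). Cebpe was at 103, 137 and 107 CPM in leucogen, above all model mice, with a log2 fold change of 0.68 (adjusted p = 0.0842, edgeR). Late neutrophil markers were higher in this comparison, as was Cebpe, though Cebpe was not called. Of the 12 markers, 9 rose and none fell, beside 11.6% of all genes higher and 11.5% lower. The summed CPM of the list went from 5335 to 12060 in the model libraries to 20850 to 28350 in the leucogen libraries. From normal to model Cebpe and these markers did not move together. There 6 of the 12 markers fell and none rose, while Cebpe was at 0.36 and not called, or at 0.63 and called without model replicate 1. All 12 of these markers had counts in each library. The promyelocyte markers, of which 5 of 6 fell, and the monocyte markers, of which 4 of 8 fell, moved with Cebpa and Klf4. In the other direction, 2 of the 8 monocyte markers were higher in leucogen, though 0 passed the cutoff. Their part in the changes of the factors was not tested.

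Gfi1, Spi1 and Irf8 were not called between leucogen and model. Gfi1 was at 83.8, 69.5 and 110.4 CPM in leucogen, with a log2 fold change of -0.04 and an interval from -0.60 to 0.53. Spi1 was at 98, 128.8 and 100.9 CPM, with an interval from -0.55 to 0.37 that lies inside the 1.5-fold cutoff. Irf8 was at 206, 143 and 177 CPM and its interval ran from -0.90 to 0.26. Several calls of this comparison were lost when 1 library was left out. Without leucogen replicate 3 there were 0 calls, with the log2 fold change of Cebpa at -0.72 (adjusted p = 0.0568, edgeR) and that of Runx1 at 0.58 (adjusted p = 0.0612). Cebpa was the 1 call left without leucogen replicate 1, and Cebpa and Runx1 the 2 left without model replicate 1. Cebpd was lost without any one of the libraries but model replicate 3, and Klf4 without any one but model replicate 2. Cebpb was called without model replicate 2 (adjusted p = 0.0332) or leucogen replicate 2 (adjusted p = 0.0419), and Cebpe without model replicate 3 (adjusted p = 0.0357).

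Against normal, the QJSB group was higher in 6 of the 9 genes, beside 37.9% of all genes called, 18.0% higher and 19.9% lower. These were the 5 genes of the model group and Cebpe. They were also the 6 of the 9 genes whose groups did not overlap, beside 58.0% of all genes. The largest was again Gfi1, with a log2 fold change of 2.83 ± 0.34, or 7.11-fold (adjusted p = 0.000522, edgeR), followed by Cebpb at 2.18 ± 0.32 (adjusted p = 0.00123). Cebpa was at 1.62 ± 0.12, Spi1 at 1.29 ± 0.16 and Klf4 at 1.24 ± 0.25 on the same scale. Cebpe, at 1.15 ± 0.31 (adjusted p = 0.0182), was not called when any one of normal replicates 1, 2 or 3 or QJSB replicates 2 or 3 was left out, with adjusted p from 0.0525 to 0.0654. Irf8 and Runx1 were at -0.12 and -0.02, and Cebpd was at 0.43 (adjusted p = 0.226), or 0.68 and called without QJSB replicate 1 (adjusted p = 0.00803).

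The leucogen group was higher than normal in 8 of the 9 genes, all but Irf8, beside 37.7% of all genes called, 17.8% higher and 19.8% lower. The groups did not overlap for 7 of the 9, all but Cebpb and Irf8, beside 61.8% of all genes. Gfi1 led with a log2 fold change of 2.09 ± 0.42 (adjusted p = 0.01, edgeR). Cebpe stood at 1.05 ± 0.12 (adjusted p = 4.98e-05), Spi1 at 0.80 ± 0.11 and Cebpa at 0.78 ± 0.12. Runx1 at 0.62 ± 0.10, Cebpd and Klf4 at 0.59 and Cebpb at 0.70 lay close to the fold or the p cutoff, and the alternative fits called between 4 and 8 of the 9, with 5 without leucogen replicate 1. Cebpb was lost without normal replicate 2 or 3 or leucogen replicate 2 or 3, Cebpd without normal replicate 3 or leucogen replicate 1 or 2, Klf4 without normal or leucogen replicate 1, and Runx1 without normal replicate 2 or leucogen replicate 1. Irf8 was at -0.21 with an interval from -0.51 to 0.09. These comparisons share the normal mice with the first, so their calls are not separate evidence of it.

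QJSB against leucogen compared the drug groups directly. It gave 4 called genes, beside 24.6% of all genes tested, 12.9% higher in QJSB and 11.7% lower. Cebpa was higher in QJSB by a log2 fold change of 0.82 ± 0.13 (adjusted p = 0.00479, edgeR), Cebpb by 1.48 ± 0.32 (adjusted p = 0.012) and Gfi1 by 0.73 ± 0.19 (adjusted p = 0.0243). Runx1 was lower in QJSB, with a log2 fold change of -0.65 ± 0.16 (adjusted p = 0.0161, edgeR). That call was lost below the fold cutoff with total counts, at -0.57, and in the 2 limma fits on FPKM, at -0.57 and -0.54. The groups did not overlap for these 4 genes nor for Klf4, whose log2 fold change was 0.63 (adjusted p = 0.0787), beside 48.8% of all genes. Spi1 was at 0.48 (adjusted p = 0.0861), or 0.63 and called without QJSB replicate 1 (adjusted p = 0.00872), and Cebpe, Cebpd and Irf8 were at 0.09, -0.17 and 0.08. Without leucogen replicate 1 Cebpa was the 1 gene called. There were 2 calls without leucogen replicate 3 (Cebpa and Gfi1) and 2 without QJSB replicate 2 (Cebpa and Cebpb). Gfi1 was also lost without QJSB replicate 3 or leucogen replicate 2.

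Calls for QJSB against leucogen, leucogen against model and QJSB against normal changed when the base composition of the genes was taken into account. The GC content of the longest transcript was 67.2% for Cebpb, 62.6% for Cebpa, 61.5% for Cebpe, 58.9% for Spi1 and 57.4% for Gfi1, against a median of 48.8% over 15238 genes. Runx1, at 46.4%, was the only one of the 9 below that median. When the trend of each library on GC content was removed, 0 of the 9 genes were called for QJSB against leucogen. The log2 fold change of Cebpa was then 0.29, that of Cebpb 0.89, that of Gfi1 0.30 and that of Runx1 -0.58. For leucogen against model 3 of the 4 calls were lost, with Cebpa at -0.41 and Runx1 at 0.55, below the fold cutoff, and Klf4 at -0.48 (adjusted p = 0.0935, edgeR). Cebpd stayed called there, and Cebpe went to 1.03, past both cutoffs. For QJSB against normal Cebpe went to 0.88 (adjusted p = 0.0519, edgeR) and was lost. The 5 calls of model against normal were kept, with Gfi1 at 1.99 and Cebpa at 1.48.

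**Figure D3:**
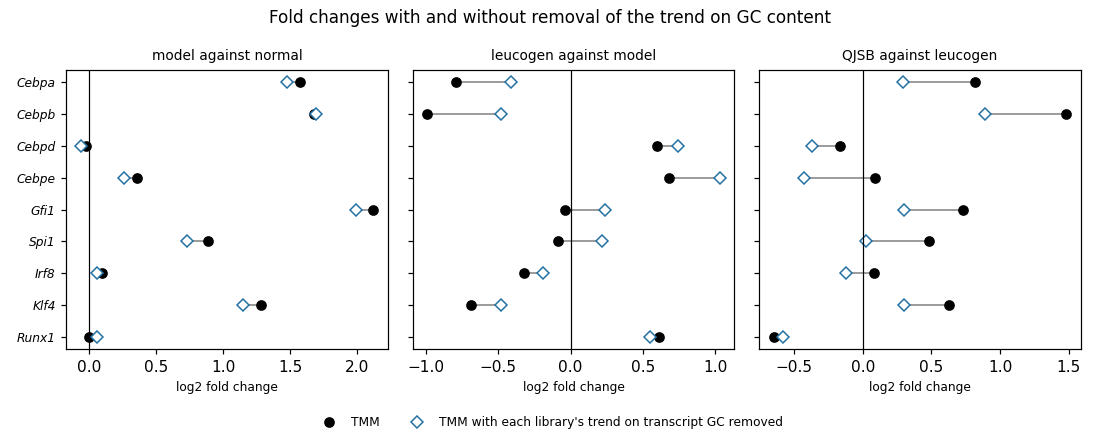
Log2 fold change (horizontal axes) of the 9 genes in 3 comparisons, with TMM normalization (filled circles) and with the trend of each library on transcript GC content also removed (open diamonds). For QJSB against leucogen Cebpa moved from 0.82 to 0.29, while for model against normal it moved from 1.57 to 1.48.

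Ratios of factors within a library do not depend on how libraries are scaled. CPM is not scaled to transcript length, so a ratio serves to compare groups, and its sign does not rank the genes. For 7 pairs the log2 ratio of CPM was compared in 3 comparisons, 21 tests in all, by exact two-sided permutation tests of 3 mice against 3. Such a test cannot give a p under 0.1, and the smallest adjusted p was 0.21, so none of these differences could pass 0.05. The log2 ratio of Cebpe to Cebpa was 1.64, 1.43 and 1.27 in the normal mice and -0.62, 0.58 and 0.59 in model. The groups lay apart by a mean of -1.26 (exact permutation p = 0.1). In leucogen the ratio was 1.58, 1.79 and 1.76, above all model mice by a mean of 1.53 (exact permutation p = 0.1). The QJSB mice, at -0.06, 1.41 and 1.28, overlapped the model mice. In FPKM, Cebpe was above Cebpa in model replicate 1 too, at 40.35 against 16.04.

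Irf8 over Cebpa was 3.26, 3.33 and 3.31 in normal and 2.20, 1.73 and 1.46 in model, a mean difference of -1.51. Irf8 over Gfi1 went from 4.12, 3.19 and 2.89 in normal to 2.36, 0.76 and 0.67 in model, a difference of -2.14. The ratio of Klf4 to Irf8, both factors of the monocyte path, was -3.91, -3.76 and -3.90 in normal and -2.85, -2.79 and -2.36 in model, higher by 1.19 without overlap. Cebpb over Cebpa did not separate the groups, with a mean difference of 0.06 from normal to model (exact permutation p = 0.9). None of the 7 ratios separated QJSB from model.

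**Figure D4:**
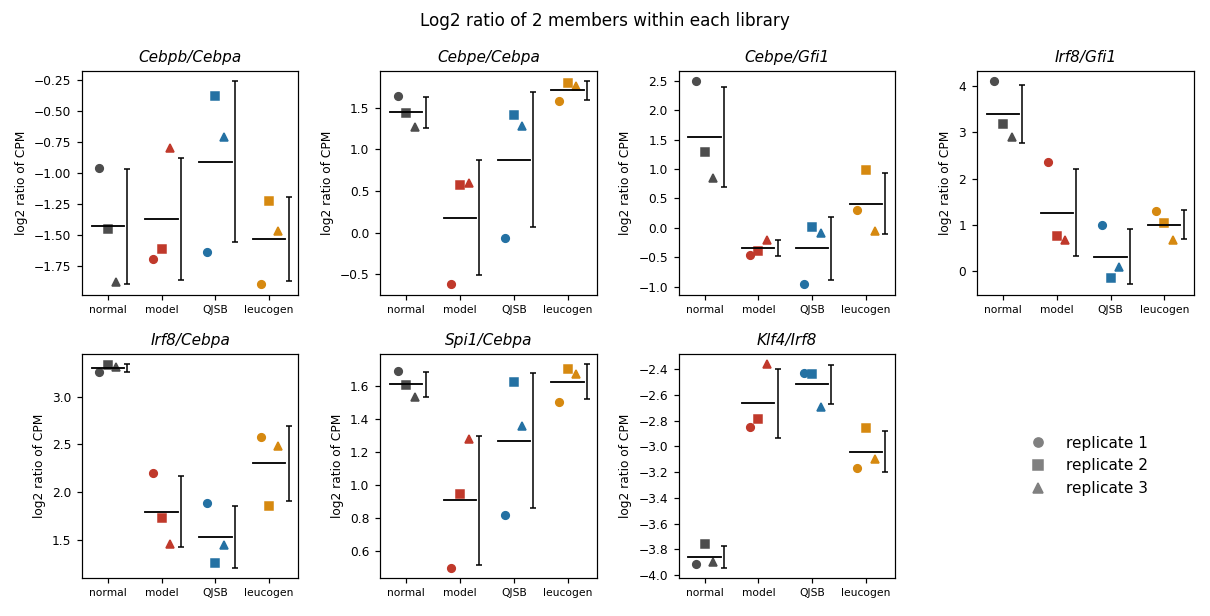
Log2 ratio of the CPM of 2 genes within each library (vertical axes) for 7 pairs, by group. Points are mice with the marker giving the replicate number, lines are means and bars ± 1 SD. Cebpe/Cebpa was between 1.27 and 1.64 in normal mice and between -0.62 and 0.59 in model mice.

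Genes connected with the factors were counted in 3 lists, and several of the targets are also markers of a cell type. Of 17 known targets, 7 rose and 2 fell from normal to model, where 16.1% of all genes rose and 19.0% fell, with a median log2 fold change of 0.46 beside 0.02 over all genes. The highest were Mpo and Elane, granule enzymes of promyelocytes, at 3.22 and 2.67, and Csf2rb, the shared receptor chain for GM-CSF, at 2.18. Camp, a secondary granule peptide, and Lyz2, lysozyme, were at -1.69 and -0.90. In leucogen against model 6 targets rose and 4 fell, beside 11.6% of all genes higher and 11.5% lower. Camp was at 2.43, Ltf at 2.37 and Lyz2 at 1.93. Fcgr1, Mpo and Csf1r, the receptor for M-CSF, were at -1.40, -1.23 and -0.98. The level of Fcgr1 was low, at 1.94 CPM in leucogen and 5.12 CPM in model. In QJSB against model 0 of the 17 passed, and the median log2 fold change was 0.33 beside -0.02 over all genes.

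Of 20 relatives of the 9 genes, 0 rose and 10 fell from normal to model, to be read against the same 16.1% and 19.0% of all genes. Spib and Irf4, relatives of Spi1 and Irf8 that act in B cells, were at -5.26 and -4.66, and Gfi1b, a relative of Gfi1 in red cell and platelet precursors, was at -3.31. The B lineage and erythroid markers fell as well in the same libraries, and their part was not tested. Among 24 tested partners, regulators and opposing factors, 2 rose and 6 fell, beside the same shares of all genes. Stat3, which carries the G-CSF signal, was at 0.90 and Id1 at 0.76. Trib2, whose product promotes loss of C/EBPα protein, was at -5.72, Gata1 at -3.98 and Egr1 at -3.03. The part of the falling B lineage and erythroid markers was not tested for these genes either, nor was any link of Trib2 to Cebpa. In leucogen against model 1 relative rose and 2 fell, and 2 partners rose and 2 fell, beside 11.6% of all genes higher and 11.5% lower. Trib1 was at 1.47, Rfwd2, which encodes the ligase COP1 that acts with Trib proteins, at 0.95, and Klf6 at 1.03. Fos and Stat5a were at -2.13 and -0.73 there, and Irf4 and Irf5 at -2.18 and -1.08. In QJSB against model 0 genes of either list passed.

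**Figure D5:**
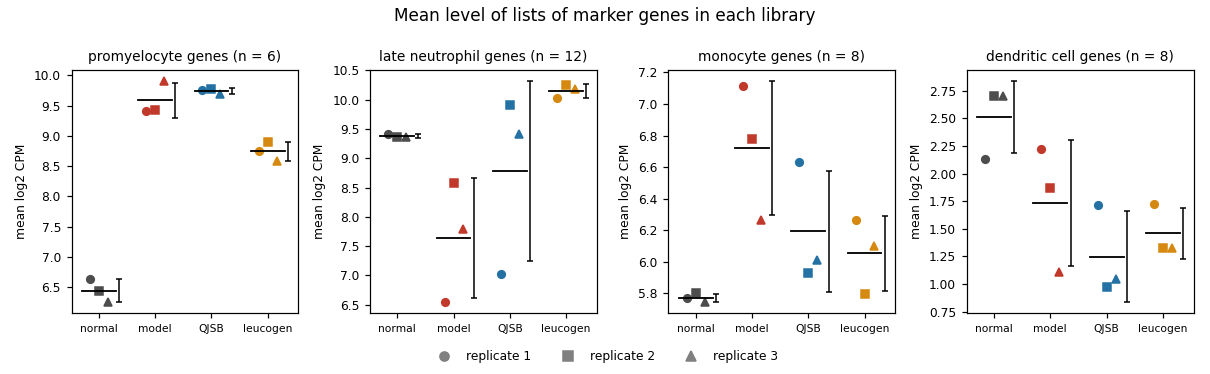
Mean log2 CPM (vertical axes) over lists of marker genes in each library, by group, for promyelocytes, late neutrophils, monocytes and dendritic cells. Points are mice with the marker giving the replicate number, lines are means and bars ± 1 SD. The late neutrophil mean was 6.54 in model replicate 1 and 7.03 in QJSB replicate 1, and at least 10.02 in the leucogen mice.

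The genes whose log2 CPM ran most like each factor over the 12 libraries were found among 10077 genes with a mean of at least 5 CPM. The libraries form 4 groups, so these values of Pearson's r describe group differences as much as mice. The nearest to Cebpe was Cd177, a neutrophil surface gene (r = 0.989), followed by Ckap4 and Cpd. Cebpa ran most like Lrp1 (r = 0.993), Lrp5 and Gsto1, and Spi1 most like Tnfrsf1a (r = 0.992), Flot2 and Tkt. Cebpb ran most like Clic1 (r = 0.978) and Rps9, Gfi1 most like Kank3 (r = 0.971), Haghl and Sdr42e1, and Klf4 most like Adck1 (r = 0.968), Abca2 and Il6st. Irf8 was nearest to Tbc1d4 (r = 0.96), Capn2 and Zc3h12c. Runx1 was nearest to Lrrc1 (r = 0.94), Rasgrp2 and RP23-172P1.1, and Cebpd, with the lowest value of the 9, to Msl1 (r = 0.936), Ttc7b and Hk3.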

How the data were processed

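The authors sequenced rRNA-depleted RNA of femoral marrow from 12 mice in strand-specific libraries, which were mapped to mm10 with HISAT2. The authors deposited a read count per gene and library, without normalization, and an FPKM that is scaled to transcript length and library total. The program that counted reads and its use of strand are not given in the sources used here. Column headings were read as groups from their words and by elimination. A later look at group means in the supplement left that reading unchanged, but its values are not given here, so the reading remains an assumption. There were 0 unused columns of sample values.

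Counts were tested with edgeR 4.0.16 in R 4.3.3 (TMM, filterByExpr, robust quasi-likelihood fit, only the 6 libraries compared), over all genes tested. The alternatives were DESeq2 1.42.0, its size factors, total counts, no filter, a minimum of 10 counts per gene and library, all 12 libraries fitted together, the replicate number as a block, limma 3.58.1 on log2(FPKM + 0.1) or log2(FPKM + 1), removal of the GC trend, an unadjusted p, no fold cutoff, and each library left out. Leaving out replicate 1 of model and QJSB together was added after the data were seen. Log2 CPM used a prior count of 2. The tests were checked on simulated counts. Same-numbered QJSB and model libraries deviated together (r = 0.426, 0.123 and 0.107 over 15310 genes), by a rule of r over 0.1 for each number. Only 1 of the 3 numbers correlated best with its own there, and that pairing comes from these correlations alone. The other comparisons did not pass the rule. QJSB against leucogen gave r = 0.181, 0.134 and 0.078, with each of the 3 numbers best with its own.

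All 9 genes are named, with up to 3 highest and 3 lowest called genes per list and 3 nearest patterns per gene, of which 1 is not reported here. The genes and lists were chosen with earlier results of these data known. Intervals give the uncertainty of a log2 fold change between groups, not the range of single mice, and rest on these mice alone.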

Additional observations from a re-analysis of the deposited data

How the results depend on the processing

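Of the log2 fold changes of the 9 genes under other settings, 463 of 540 kept their direction and their side of the cutoff, 52 lost the call, 8 gained one and 17 changed sign. When 1 library, or replicate 1 of model and QJSB together, was left out, 260 of 333 kept both, 38 lost the call, 6 gained one and 29 changed sign. The cause was not tested for any of them. The count of genes called for model against normal was 5 under each setting, and 5 to 6 with a library left out. For QJSB against model it was 0, and 1 by the unadjusted rule. For leucogen against model the count went from 4 to 2 without the filter on low counts and to 2 with the GC trend removed, rose to 6 with DESeq2 and by the unadjusted rule, and ranged from 0 to 4 with a library left out. For leucogen against normal it went from 8 to 5 with DESeq2, with its size factors, without the filter and with all 12 libraries in one fit, and to 4 with total counts, at least 10 counts in every library and either limma fit on FPKM, with 5 to 7 when a library was left out. For QJSB against leucogen it went from 4 to 0 with the GC trend removed and ranged from 1 to 5 with a library left out. For QJSB against normal it ranged from 5 to 7.

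Signs changed only for values that were not called. For model against normal Runx1 went from 0.00 to -0.01 with DESeq2 and with its size factors, to -0.02 with at least 10 counts in every library and to a negative value that rounds to 0.00 with all 12 libraries, and Cebpd from -0.02 to 0.10 with total counts and 0.09 in either limma fit. For QJSB against model Cebpa went from 0.03 to -0.05 with total counts and in either limma fit and to -0.12 with the GC trend removed. With the GC trend removed, leucogen against model went to 0.24 for Gfi1 and 0.22 for Spi1, QJSB against normal to 0.05 for Runx1, and QJSB against leucogen to -0.43 for Cebpe and -0.12 for Irf8. Scaling to total counts moved the median log2 fold change over all genes from 0.02 to 0.14 for model against normal and from -0.05 to -0.22 for leucogen against model, and Runx1 in the latter from 0.61 to 0.43.

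With a library left out, values that changed sign ranged as follows. For model against normal Cebpd ranged from -0.24 to 0.13, Irf8 from -0.23 to 0.28 and Runx1 from -0.05 to 0.08. For QJSB against model Cebpa ranged from -0.08 to 0.11, Irf8 from -0.51 to 0.10, Runx1 from -0.16 to 0.04 and Klf4 from -0.39 to 0.15. For leucogen against model Gfi1 ranged from -0.24 to 0.15, Spi1 from -0.22 to 0.19 and Irf8 from -0.45 to 0.04. For QJSB against normal Irf8 ranged from -0.39 to 0.05 and Runx1 from -0.13 to 0.07, and for QJSB against leucogen Cebpd from -0.35 to 0.07, Cebpe from -0.11 to 0.39 and Irf8 from -0.20 to 0.26. Among the log2 ratios, 117 of 126 kept their sign. Cebpb/Cebpa ranged from -0.22 to 0.30 for model against normal and from -0.33 to 0.12 for leucogen against model, Cebpe/Gfi1 from -0.17 to 0.31 for QJSB against model and Irf8/Gfi1 from -0.56 to 0.29 for leucogen against model. The 21 ratios of FPKM kept their sign.

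With the replicate number as a block, QJSB against model gave 0 calls, with Gfi1 at 0.73 (adjusted p = 0.23, edgeR), and the block changed no call there. In the comparisons that did not pass the rule on correlations, the block had these effects. For leucogen against model it gave 3 calls in place of 4. Cebpd (adjusted p = 0.08, edgeR) and Klf4 (adjusted p = 0.0505) were lost there and Cebpe was gained (0.74, adjusted p = 0.0487). For leucogen against normal it gave 7 in place of 8, with Cebpb lost. For QJSB against leucogen it gave a value of Cebpe that rounds to 0.00. Every one of the 3 numbers correlated best with its own only between QJSB and leucogen.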
